A study of Homo sapiens with 12 samples.

Results

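Dense clusters of distal summits were runs of accessible sites away from the ends of coding genes, in which each site lay no more than 12.5 kb from the next. They were taken from 1 peak list of the HT1080 fibrosarcoma line, a list of intervals with 1 or more summits each, where a summit is the position of highest signal in a peak. A summit was kept when it lay on an autosome, in an interval of at most 10 kb, with a −log10 q-value of at least 10, and over 1000 bp from both ends of every protein-coding gene. Kept summits were chained while the gap to the next was at most 12500 bp, and a chain was called a cluster when it held at least 10 summits and overlapped a coding gene or lay within 100 kb of one. The rule gave 64 clusters with 802 summits in 461 intervals. The 802 summits were 1.38% of the 58129 distal summits that passed the same filters and 0.427% of the 188019 summits of the list. The clusters were chosen by the positions of called peaks and by their q-values, so the strength and spacing of their summits are given below as a description, with no test.

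ATAC-seq reads open chromatin through the sites where a transposase can reach the DNA. The cells had spent 48 h in gels of rat tail collagen, at 0.3 mg/mL in the low, 1 mg/mL in the medium and 1.7 mg/mL in the high concentration group, with 4 libraries per group and 12 in all. Every group received the metalloproteinase inhibitor GM6001 at 20 µM, so no group shows these cells without it, and all libraries came from a single cell line. The study compared chromatin accessibility between the 3 concentrations, but the list analysed here has no column per library or group, so none of the values below compares concentrations, none has a replicate error, and the depth of each library is unknown.

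Accessible sites far from gene ends often hold enhancers, short stretches of DNA where transcription factors bind and from which they act on promoters at a distance. Runs of such sites inside or beside 1 gene are common at genes that are characteristic of a cell type. Runs can also come from tandem repeats, in which a short unit such as the gene of a small RNA is copied many times over, and from long noncoding RNA genes that start inside the run.

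For each summit the list gives the authors' enrichment, which is the fold of the signal over the background, and from it and the p-value the pileup (fragments overlapping the summit) and the local background (fragments expected there) were recovered. The lowest background in the list was 20.3 fragments and is called the genome-wide background here. As a check of the cell type, an end lay within 1000 bp of a summit for 5 of 7 mesenchymal marker genes, namely VIM, FN1, COL6A2, S100A4 and CD44, while COL1A1 and THY1 had none. The same held for 1 of 5 epithelial markers (KRT8), 1 of 3 haematopoietic markers (CD3E) and 0 of 3 endothelial markers, against 60.6% of the 19126 autosomal coding genes. That share counts only summits that met the q-value and interval length limits of the rule. Enrichment at the marker ends was 14.5 for CD3E and 12.7 for KRT8, within the range of the 5 mesenchymal genes, from 6.64 (VIM) to 15.1 (FN1). An accessible gene end does not show that the gene is expressed.

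Start sites of 3 long noncoding RNA genes that held a summit of a cluster are shown because they were among the strongest summits of their clusters at an annotated start. Each sequence runs from 250 bases before to 50 bases after the start site (RefSeq, GRCh38.p14), 5′ to 3′ on the strand of the gene. MALAT1, an abundant nuclear noncoding RNA, is at chr11:65497488-65497787 on the plus strand, and its summit lay 156 bp upstream of the start with an enrichment of 11.5. ENEMAL is at chr11:65477438-65477737 on the minus strand, with a summit 67 bp upstream of the start and an enrichment of 10.5. LOC105370913 is at chr15:78716011-78716310 on the minus strand, with a summit 67 bp upstream of a start and an enrichment of 14.4. Capitals mark the 21 bases centred on the summit in MALAT1 and LOC105370913, and the AP-1 motif in ENEMAL.
MALAT1: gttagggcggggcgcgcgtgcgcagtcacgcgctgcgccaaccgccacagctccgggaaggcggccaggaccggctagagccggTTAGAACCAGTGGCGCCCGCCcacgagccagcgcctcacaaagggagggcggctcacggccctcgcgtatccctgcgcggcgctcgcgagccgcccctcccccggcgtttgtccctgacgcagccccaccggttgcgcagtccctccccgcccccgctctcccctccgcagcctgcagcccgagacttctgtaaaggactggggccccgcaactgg
ENEMAL: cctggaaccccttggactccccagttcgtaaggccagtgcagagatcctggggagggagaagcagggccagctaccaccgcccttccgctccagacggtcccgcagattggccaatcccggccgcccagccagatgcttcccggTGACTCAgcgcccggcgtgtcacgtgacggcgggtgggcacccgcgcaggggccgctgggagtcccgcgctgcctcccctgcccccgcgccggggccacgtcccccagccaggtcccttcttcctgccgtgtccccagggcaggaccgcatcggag
LOC105370913: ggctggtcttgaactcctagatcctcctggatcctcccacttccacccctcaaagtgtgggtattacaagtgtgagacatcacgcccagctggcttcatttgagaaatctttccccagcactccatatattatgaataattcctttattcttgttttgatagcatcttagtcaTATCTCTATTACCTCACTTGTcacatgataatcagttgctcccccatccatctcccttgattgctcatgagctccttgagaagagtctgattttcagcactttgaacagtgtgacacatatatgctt

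The motif of AP-1, the FOS and JUN family of transcription factors, was searched as TGACTCA or TGAGTCA, and that of the TEAD factors, which act with YAP, as GGAATG, on both strands; the motifs share no run of letters that would count 1 site under both names. Of 34943 promoters of 300 bases in the RefSeq table, 4.96% held the AP-1 motif and 14.0% the TEAD motif. In all, 14 of these promoters, several of them overlapping, held a summit of a cluster. Of these, 1 (7.14%) held the AP-1 motif: the ENEMAL promoter, where the motif begins 106 bp upstream of the start and its centre lies 36 bp from the summit. The TEAD motif was in 3 of the 14 (21.4%), which are overlapping windows of PACSIN2 and so a single site. Upstream sequences of 2 coding genes are shown for this motif, which is in capitals in each: PACSIN2 because its window holds a summit, and AMOTL2 because it is on the YAP and TEAD gene list. An alternative start of SPHK2 also had the motif, 120 bp upstream, with a summit of enrichment 4.28 outside its window. PACSIN2, whose product bends membranes, has an alternative start at the edge of its cluster, with 250 bases upstream at chr22:42959900-42960149 on the minus strand. The motif begins 49 bp upstream of that start, and a summit of enrichment 7.08 lay 28 bp upstream. AMOTL2 is a target of YAP and TEAD that encodes an angiomotin family protein. Its 250 bases are at chr3:134374448-134374697 on the minus strand, before an alternative start. That start lay outside the cluster, within 1000 bp of the 5′ end of the gene, and the motif begins 69 bp upstream of it. The nearest summit of the cluster lay outside this window, 575 bp downstream of the start, with an enrichment of 1.81. Summits within 1000 bp of a coding gene end are not in clusters, and the highest enrichment there was 12.1 for AMOTL2.
PACSIN2: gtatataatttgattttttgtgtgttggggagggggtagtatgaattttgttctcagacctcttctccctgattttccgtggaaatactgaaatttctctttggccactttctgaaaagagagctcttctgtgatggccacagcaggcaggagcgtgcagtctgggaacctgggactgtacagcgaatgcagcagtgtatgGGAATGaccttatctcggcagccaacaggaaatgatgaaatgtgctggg
AMOTL2: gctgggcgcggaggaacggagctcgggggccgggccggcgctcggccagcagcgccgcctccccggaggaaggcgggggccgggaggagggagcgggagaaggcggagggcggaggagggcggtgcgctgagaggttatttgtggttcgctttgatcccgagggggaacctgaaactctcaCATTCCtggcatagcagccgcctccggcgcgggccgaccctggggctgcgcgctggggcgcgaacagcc

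Clusters held 17 microRNA genes, of which 15 were found in the RefSeq table. Mature sequences are shown for 3 loci, with the seed (bases 2 to 8, which pair with target RNAs) in capitals. The MIR23A, MIR27A and MIR24-2 genes lie together on the minus strand of chromosome 19, with mature sequences at chr19:13836595-13836615, chr19:13836447-13836467 and chr19:13836289-13836310. In the cluster on chromosome 11, let-7a-5p from MIRLET7A2 is at chr11:122146568-122146589 and miR-100-5p at chr11:122152275-122152296, both on the minus strand.
hsa-miR-23a-3p: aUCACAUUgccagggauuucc
hsa-miR-27a-3p: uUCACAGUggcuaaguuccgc
hsa-miR-24-3p: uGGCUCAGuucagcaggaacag
hsa-let-7a-5p: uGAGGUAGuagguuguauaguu
hsa-miR-100-5p: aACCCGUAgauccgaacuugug
The other locus, on the minus strand of chromosome 9 beside COL5A1, is a family of 7 MIR3689 genes. Its 9 mature sequences were 5 distinct ones with 3 seeds. MIR3689C and MIR3689B shared a mature sequence, and the 3p arm of MIR3689A had the same seed with a difference outside it. Another seed was shared by the 5p arms of MIR3689A and MIR3689B and by MIR3689E, which are identical, and by MIR3689F. The remaining seed belonged to MIR3689D1 and MIR3689D2. Sequences of 1 gene per seed follow, at chr9:134849302-134849323, chr9:134849534-134849555 and chr9:134849660-134849681.
hsa-miR-3689c: cUGGGAGGugugauauuguggu
hsa-miR-3689a-5p: uGUGAUAUcaugguuccuggga
hsa-miR-3689d: gGGAGGUGugaucucacacucg

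The clusters held between 10 and 28 summits, with a median of 11.5, and 24 of the 64 held exactly 10. From first to last summit they spanned 3979 to 85626 bp (median 42945.5 bp). Of the 64, 36 overlapped a coding gene: 30 overlapped 1, 2 overlapped 2 and 4 overlapped 3 or more. The other 28 overlapped none, and the nearest coding gene lay within 10 kb for 8 of them, at 10 to 50 kb for 16 and at 50 to 100 kb for 4. Clusters were present on 19 autosomes, with 8 each on chromosomes 17 and 19, 6 on chromosome 1 and 5 on chromosome 2.

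The clusters were divided in 2 by spacing, at a limit with no clear break in the median gaps, which reached 929 bp just below it. In 23 clusters the median gap between neighbouring summits was at most 1000 bp, a limit set after the values were seen; these spanned 3979 to 35790 bp in 1 to 7 intervals, with up to 14 summits in a single interval. In the other 41 the median gap was 1062 to 8837 bp, the span 24272 to 85626 bp and the number of intervals 5 to 14. A coding gene was overlapped by 10 of the 23 closely spaced and 26 of the 41 widely spaced clusters. The pileup was higher in the widely spaced ones, with a median of 295 against 167 fragments, and so was the background, at 59.4 against 33.3 fragments, while the median enrichments were 4.43 and 4.64.

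**Figure D1:**
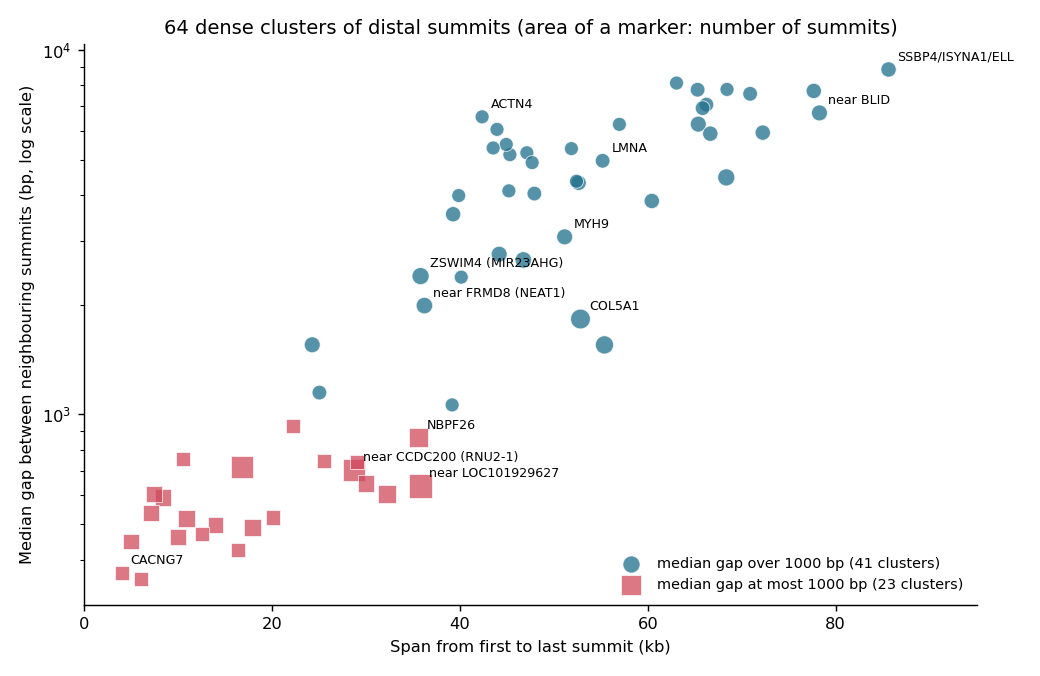
Each marker is 1 of the 64 clusters, with its span in kb on the horizontal axis and the median gap between neighbouring summits in bp on a log scale on the vertical axis; marker area stands for the number of summits. The 23 closely spaced clusters (squares) span at most 35790 bp, and the 41 widely spaced ones (circles) span at least 24272 bp.

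With chains of 10 or more beyond 100 kb from coding genes set apart, median enrichment was lower and background higher in longer chains. Median enrichment was 6.19 for summits that stood alone (24442 summits), 5.37 in chains of 2 to 4, 4.73 in chains of 5 to 9 and 4.52 in the clusters, where the quartiles were 3.17 and 6.91. Median pileup ran the other way, at 149, 165, 189.5 and 227 fragments, and so did the median background, at 21.3, 28.7, 37.1 and 48.2 fragments. The quartiles of neighbouring classes overlapped for all 3 measures. The classes also differed in how many summits shared an interval with another summit of the class: 0%, 23.6%, 40.3% and 56.0% in turn. The part of shared intervals in these orders was not tested. Only 27 of the 802 summits (3.37%) had the genome-wide background, against 45.2% of single summits and 31.2% of all other distal summits. A background over 5 times that level was present at 185 (23.1%), against 4.60% of all other distal summits. Chains of 10 or more that lay beyond 100 kb from any coding gene, 41 chains with 681 summits, did not follow this order: their medians were 3.94 for enrichment, 118 fragments for pileup and 20.3 fragments for background, with the genome-wide background at 55.8% of summits.

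**Figure D2:**
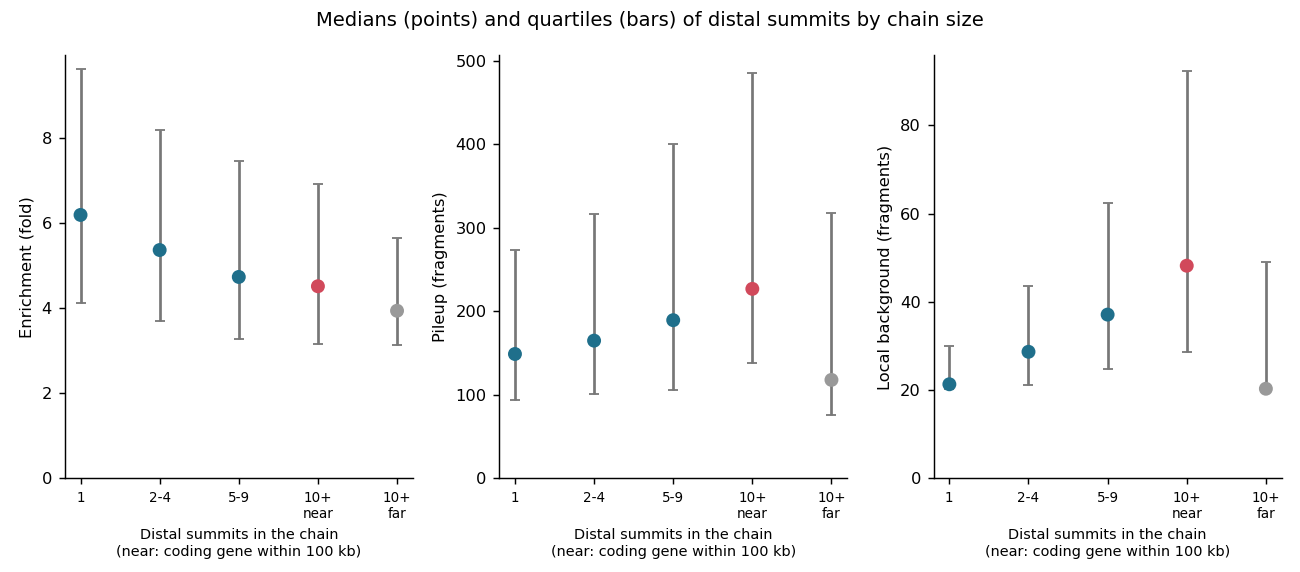
Points are medians and bars run from the lower to the upper quartile of enrichment (fold), pileup (fragments) and local background (fragments) of distal summits, by the number of distal summits in their chain. Summits of the clusters (red, chains of 10 or more with a coding gene within 100 kb) have median values of 4.52, 227 and 48.2 in turn, and single summits 6.19, 149 and 21.3.

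Of the summits of the clusters, 42.1% lay inside a coding gene (338 of 802; exact 95% binomial interval 38.7 to 45.6), and of other distal summits 48.4% (47.9 to 48.8). These intervals cover counting error only, summits of 1 cluster are not independent, and the difference was not tested. The share in the clusters moved with the rule: it was 53.5% with a joining gap of 25000 bp and 56.5% with distance counted from the ends of all genes. The share of other distal summits was not computed again under those alternatives, so the direction of the difference there is not known. In the widely spaced clusters alone the share was 45.9% (41.4 to 50.5). In all, 139 of the 802 (17.3%) lay within 1000 bp of an end of a noncoding gene, against 8.23% of other distal summits. The clusters overlapped 50 tRNA genes, and 44 of these (88%) had an end within 1000 bp of a summit of the cluster, against 68.1% of 439 autosomal tRNA genes with a distal summit that near. The counts were 18 of 20 (90%) against 39.7% of 151 for snRNA genes and 26 of 43 (60.5%) against 16.1% of 17795 for long noncoding RNA genes. Clusters were chosen for their many summits, so nothing is read from these differences.

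Start sites were counted separately. Outside chromosome 8, which the promoter table lacks, 11 of 750 summits of the clusters (1.47%) lay within 1000 bp of an alternative start of a coding gene, that is a start inside the gene, against 3.00% of 54664 other distal summits. Start sites of long noncoding RNAs had 19 of the 750 (2.53%) within 1000 bp, against 3.23%. The 11 summits belonged to 10 coding genes and the 19 to 18 long noncoding RNA genes.

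Clusters overlapped 50 autosomal coding genes, 0.261% of all 19126, and overlapped or lay within 100 kb of 269, or 1.41%. Of the 50 overlapped genes, 33 (66%; exact 95% interval 51.2 to 78.8) had an end within 1000 bp of a summit, with a median of 12.1 for the highest enrichment there. Summits counted at these ends met the q-value and interval length limits of the rule. That compares with 133 of 219 genes (60.7%, 53.9 to 67.2) within 100 kb but not overlapped, with a median of 10.6, and with 60.6% and a median of 12.3 over all autosomal coding genes. The interval for the overlapped genes includes the share over all genes.

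The 9 gene lists, 1 of them a contrast list of genes of other lineages, held 211 autosomal genes. Of these, 5 were overlapped by a cluster and 6 were overlapped or within 100 kb. The shares over all autosomal coding genes were 0.261% and 1.41%. The actin and contractility list had 2 of 28 overlapped (7.14%), ACTN4 and MYH9. The list of matrix, adhesion and invasion genes had COL5A1 overlapped and COL6A3 within 100 kb, 2 of 35 (5.71%). The YAP and TEAD list had AMOTL2 (1 of 14, 7.14%), and the heterochromatin and nuclear envelope list had LMNA (1 of 24, 4.17%). None was within 100 kb of a cluster among 11 AP-1 factors, 20 TGF-β signalling genes, 26 mesenchymal transcription factors, 30 growth factor and RAS signalling genes and 24 genes of other lineages. A chain of 9 summits, 1 fewer than the rule asks for, was present at ITGA2 and ITGA3 of the matrix list, which encode integrin α chains. Another was at DUSP5 of the growth factor list, a phosphatase that acts on ERK. These were among 30 such chains within 100 kb of a coding gene, others of which lay at genes on none of the lists, such as EPPK1 and MUC5B. The share of all coding genes with such a chain was not counted, so nothing is read from these genes. These counts are small, and the genes were listed with earlier results of these data known. With 1.41% of all coding genes that near a cluster, nothing is read from the short lists that had none.

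LMNA encodes lamins A and C, the filaments that stiffen the inner face of the nuclear envelope. Its cluster on chromosome 1 held 11 summits over 55185 bp, 9 of them inside the gene, from 8.32 to 47.8 kb after its start. Enrichment along the gene was 5.54, 10.5, 14.5 and 12.7 at the first 4 summits and between 1.70 and 5.59 at the other 7. The strongest summit, at position 156106435, lay 281 bp upstream of an alternative LMNA start at 156106716, with a pileup of 1798 fragments over a background of 123. The next summit had a higher pileup, 3319 fragments. At the outermost start of LMNA the highest enrichment was 8.36, with a pileup of 403 fragments, and 3 summits of the cluster were above that value. The strongest of them is the summit by the alternative start, so these 3 are not all away from LMNA starts.

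MYH9 encodes the heavy chain of nonmuscle myosin IIA, the motor that contracts actin bundles. All 13 summits of its cluster on chromosome 22 lay inside the gene, between 7.88 and 59.0 kb from its start. Going into the gene from its start, enrichment was 2.21 at the first summit, then 11.0, 9.25 and 6.16, and the last 5 ranged from 1.86 to 6.58. The 2 summits after the first were the most enriched. The strongest, at 36374845, had a pileup of 760 fragments. The summit at 36329573, far inside the gene, had the highest pileup, 1702 fragments, over a background that gave it an enrichment of only 6.58. The start of MYH9 had 5670 fragments at an enrichment of 14.0, above every summit of the cluster.

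ACTN4, which encodes the actin crosslinker α-actinin-4, held all 10 summits of its cluster on chromosome 19 in the first 54.9% of its length. Enrichment was highest at 38657940 (9.60), toward the start, and at 38693745 (9.42), at the far end of the cluster; the other 8 ranged from 2.63 to 7.49. The second of these lay 376 bp upstream of an alternative ACTN4 start, and its pileup of 2200 fragments was about that of the outermost start, 2166 fragments with an enrichment of 13.3.

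AMOTL2 overlapped its cluster of 11 summits on chromosome 3 at only 3 of them, and the other 8 lay beyond the 3′ end of the gene. The strongest, at 134364304 inside the gene, had 1172 fragments at an enrichment of 13.1, against 12.1 and 1229 fragments at the start of AMOTL2. The 8 summits outside ranged from 3.02 to 6.46 in enrichment, and 5 of them lay inside the noncoding genes LINC02004 (2 summits) and LOC105374118 (3 summits).

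COL5A1 encodes the α1 chain of type V collagen, a fibrillar collagen that joins type I fibrils. Its cluster of 20 summits on chromosome 9 had the lowest median enrichment of all 64, at 1.78. It lay at the 3′ end: 14 summits were inside the gene, between 80.8% and 97.5% of its length, and 6 lay beyond its end. The 14 inside had enrichments of 1.48 to 2.23. Their pileups were 180 to 558 fragments, over backgrounds of 90.7 to 296 fragments, against 20.3 genome-wide. The highest enrichments of the cluster, 3.48 and 3.91 with 402 and 461 fragments, were at the 2 summits next to the MIR3689 genes shown above, and each of the 7 genes had a summit within 1000 bp. The start of COL5A1, far from the cluster, had an enrichment of 11.0.

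**Figure D3:**
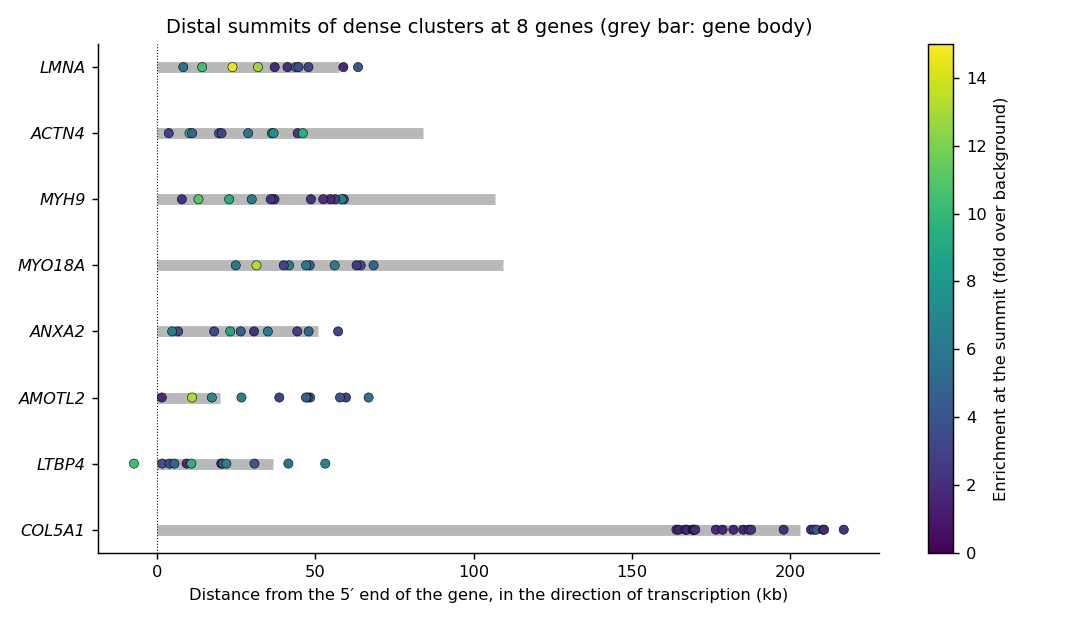
Each point is a distal summit of the cluster at 1 of 8 genes, placed by its distance in kb from the 5′ end of the gene in the direction of transcription and coloured by enrichment (fold); grey bars are gene bodies. LMNA is most enriched at 3 neighbouring summits (10.5, 14.5 and 12.7), COL5A1 has its summits in its last part and beyond it with enrichments of at most 3.91, and most AMOTL2 summits lie beyond the gene.

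Of the other widely spaced clusters, which lay at genes of many kinds, 5 are described here. ANXA2, which encodes a membrane and actin binding annexin, had 10 summits with enrichments of 2.31 to 8.90, the strongest at 60374843. MYO18A, an unconventional myosin, had 10, all inside the gene, between 2.42 and 13.2, with the strongest at 29148970. SHKBP1 and LTBP4, the second of which encodes a protein that holds latent TGF-β in the matrix, shared a cluster of 12, 9 of them in LTBP4, with enrichments of 1.96 to 10.4. No summit that met the q-value and interval length limits of the rule lay within 1000 bp of either end of LTBP4. PLEC on chromosome 8, which encodes the cytoskeletal linker plectin, had 13 summits with the highest pileups of these genes, 698 to 3327 fragments, over backgrounds of 260 to 508, and enrichments of 1.78 to 12.6. The cluster at MLPH, a gene of melanosome transport, reached 13.6 and 12.9 at 2 of its 11 summits; COL6A3, which encodes a chain of type VI collagen, lay within 100 kb of it.

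Clusters with the highest median enrichment included 3 widely spaced ones. The cluster near DUSP10, which encodes a phosphatase of p38 and JNK, had a median of 8.33 over 13 summits and reached 16.1 at 221840024, with a pileup of 1069 fragments, 642 bp inside the start of LINC01655. The BCAS1 cluster had a median of 9.06 over 11 summits and reached 15.9 at 53926788, with 864 fragments. Only 1 of its summits lay inside BCAS1, at an enrichment of 12.9, and 4 lay in its antisense gene BCAS1-AS1. The cluster near BLID lay wholly inside the long noncoding gene MIR100HG, the host of MIR100 and MIRLET7A2, with 13 summits, a median of 7.67 and its strongest values at 122180690 (13.9, 1109 fragments) and 122197241 (13.2, 628 fragments). The MIRLET7A2 gene lay 62 bp from a summit of enrichment 4.16, while the nearest summit to MIR100 was 4854 bp away.

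NEAT1 and MALAT1, 2 abundant nuclear noncoding RNAs that are neighbours on chromosome 11, lay in separate clusters with different values. The NEAT1 cluster, named near FRMD8, had 14 summits and a median enrichment of 2.12, the second lowest. Its first 4 summits, which lay before the first base of NEAT1, had enrichments of up to 4.65 with 1153 to 2139 fragments, and the other 10 had at most 3.79 and 731 fragments. The summit at 65422652 lay 146 bp before the first base of NEAT1, with 1898 fragments. The MALAT1 cluster had 12 summits with a median of 4.19 and 4 summits over 10: that at 65472225, with 1250 fragments, and 10.5 at the ENEMAL start, 12.9 at 65487721 in LINC02736 and 11.5 at the MALAT1 start, where the pileup was 2382 fragments. No summit of the cluster lay inside MALAT1, and those beyond its 3′ end had enrichments of 3.65, 4.12 and 1.97.

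The cluster at ZSWIM4 had 15 summits on chromosome 19, with medians of 2.38 for enrichment and 784 fragments for pileup. MIR23AHG, the host gene of MIR23A, MIR27A and MIR24-2, held 4 of the summits, with enrichments of 2.00, 2.83, 2.10 and 1.51. The summit nearest to all 3 microRNA genes, 387 to 687 bp from them at 13837046, had 935 fragments at an enrichment of 2.00. The strongest summit, at 13846814, had 5.70 and 2570 fragments and lay outside MIR23AHG, beyond its 5′ end. Pileup was thus high and enrichment low along this cluster, as at NEAT1 and COL5A1, and the local background moved with it, at 460 fragments at the MIR23AHG start; the part of the background in these low enrichments was not tested.

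SCIRT, a long noncoding gene on chromosome 6, held 13 of the 15 summits of the cluster near MRPL14. The summit at its start, 70 bp upstream, was the weakest of the cluster, with an enrichment of 2.31 and 133 fragments. The strongest was 10.1 at 44064672, and the highest pileup was 1402 fragments at 44058721. In the RASA3 cluster, in contrast, the most enriched of 10 summits, 9.19 with 962 fragments, lay 124 bp upstream of the start of LOC124903221. Near ADAMTS7 the strongest of 10 summits, 14.4, likewise lay upstream of a start of LOC105370913, by 67 bp, but this start is inside that gene. The summit at the outermost start of LOC105370913 had an enrichment of 5.08.

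Small RNA genes in tandem gave the clusters with the highest pileups. Near CCDC200 on chromosome 17, clusters of 24 and 16 summits lay along RNU2-1, the gene of the U2 RNA of the spliceosome, and 8 other snRNA genes. All 9 genes had a summit within 1000 bp, at distances of 20 to 247 bp from an end. RNU2-1 itself had 2059 fragments and an enrichment of 11.0. The 4 other snRNA genes of the first cluster had 8833, 11188, 8035 and 10514 fragments at their nearest summits, with enrichments of 12.2, 11.3, 10.3 and 21.4, the last being the highest enrichment of all 802 summits. The 4 of the second cluster had 5618, 1478, 8896 and 10984 fragments. Between starts of neighbouring genes within a cluster, 4 of the distances were 6131, 6155, 6152 and 6134 bp, and the others were 1259, 4494 and 3616 bp.

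Between the snRNA genes the signal varied. In the first cluster 5 summits between 43242047 and 43244158, outside any gene, had 7511 to 7581 fragments with enrichments of 6.85 to 7.08. The last 7 summits of that cluster, from 43256927 on, had 356 to 418 fragments over backgrounds of 40.7 to 135. The local background reached 1095 fragments in that cluster, against 20.3 genome-wide, and its part in the pileup was not tested. Copies of nearly the same sequence share reads, and how the authors assigned such reads is not given in the sources used here, so the split of fragments among the 9 genes is uncertain.

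The cluster near FCGR2A on chromosome 1 followed 24 tRNA genes, 23 of which had a summit within 1000 bp. Its 5 summits with an enrichment over 5 lay 6540 to 7445 bp apart, with values of 5.75, 6.26, 7.61, 6.39 and 8.62. The last 4 had 3102, 4064, 3103 and 4008 fragments, and each lay beside a pair of tRNA genes for glutamate and glycine. The next summit after each of these 4 had 1688, 1675, 1565 and 1558 fragments. The main summits were thus lower and higher in turn, with a weaker summit after each. A further summit by a TRG-GCC1 gene had 921, 1255 and 1267 fragments in 3 of the repeats, while TRG-GCC1-3 lay 2541 bp from any summit of the cluster. The first of the 5 had 1007 fragments. The split of reads among these repeated tRNA genes is uncertain in the same way as among the snRNA genes. The last 2 summits of the cluster, past the repeats, had 89 and 63 fragments.

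SNAR genes, which encode small noncoding RNAs found in primates, gave a weaker array near BSPH1 on chromosome 19. Of 10 copies, spaced 5039 to 5386 bp apart, 8 had a summit within 1000 bp. SNAR-A1, SNAR-A3 and SNAR-A2 had 591, 611 and 604 fragments, and the other 5 had 198 to 321. SNAR-C2 and SNAR-C4 had their nearest summits 5065 and 5189 bp away. The C copies with a summit (198 to 321 fragments) and the A copies (269 to 611) overlapped in level.

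**Figure D4:**
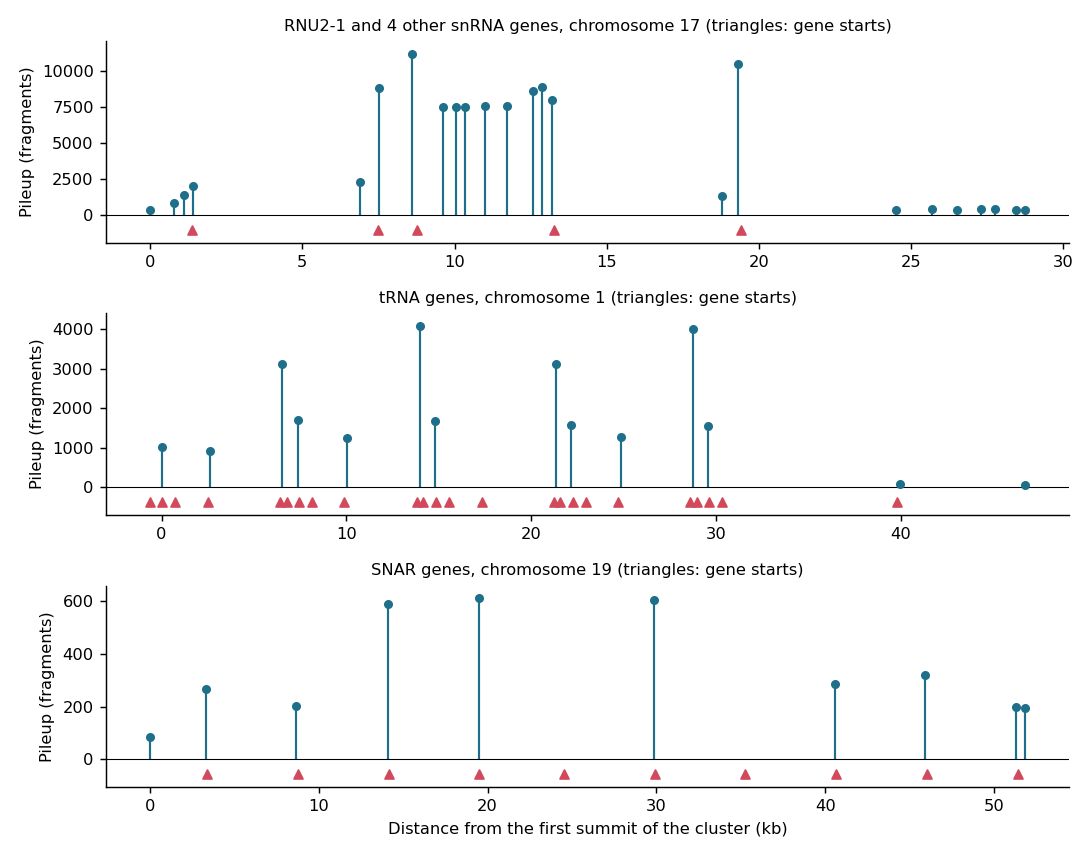
Lines are distal summits of 3 clusters, with pileup in fragments against the distance in kb from the first summit of the cluster; triangles mark the starts of the small RNA genes. Pileup reaches 11188 fragments along the snRNA genes, reaches 4064 along the tRNA genes, and reaches 611 along the SNAR genes.

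The remaining tRNA clusters were less regular. The cluster near H4C8 on chromosome 6, in a histone gene region, had 17 summits and 12 tRNA genes, 10 with a summit within 1000 bp, yet its strongest summit, 17.7 at 26351690 with 979 fragments, lay away from them. The 10 summits near tRNA genes there had a median enrichment of 3.29 and the other 7 a median of 5.14. At OR1F1 on chromosome 16, where 11 of 14 tRNA genes had a summit within 1000 bp, the strongest of 12 summits, 11.1 with 2310 fragments, was at a tRNA gene for arginine. Near GRAPL on chromosome 17 the snoRNA genes SNORD3A and SNORD3C, which encode the U3 RNA of ribosome assembly, lay 83 and 116 bp from summits of 4673 and 2143 fragments, against at most 967 fragments at the other 8.

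The densest of the closely spaced clusters without small RNA arrays, from CACNG7 down to SHANK3 below, lay in 1 or 2 broad intervals, with many summits of low, similar pileup. The next 2 in density differed. That near LOC124905368 (13.7 per 10 kb) lay in 4 intervals, and that near DLG1 (13.0 per 10 kb) ran from 108 to 1351 fragments. Enrichment was not low in all closely spaced clusters without such arrays: the median was 9.34 near SCGB1C2 and 7.27 at GALNT9. At CACNG7, a calcium channel subunit gene that gave the densest cluster (25.1 summits per 10 kb), all 10 summits lay in 1 interval, with enrichments of 3.67 to 4.60 and 92 to 118 fragments. Near POTEF (24.1 per 10 kb), a member of a family of recent gene copies, 12 summits in 1 interval had 82 to 230 fragments. At NBPF12 (18.2 per 10 kb), also of a multicopy family, 13 summits had 70 to 198 fragments, and at ACTR3C (17.4 per 10 kb) 13 had 76 to 147. The cluster near CCT8L2 (16.7 per 10 kb) had 14 summits in 1 interval with 76 to 201 fragments, and that at SHANK3 (16.4 per 10 kb), a gene of synaptic scaffolding, had 10 with 120 to 188. Within each of these the lowest and highest pileup differed less than within the gene-body clusters of LMNA or MYH9, where they ran from 171 to 3319 and from 114 to 1702 fragments. Not all gene-body clusters were as wide: IL1R1 ran from 69 to 265 and FOXP1 from 61 to 315 fragments.

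The largest cluster by summits, near LOC101929627 on chromosome 8, had 28 summits in 7 intervals beside pseudogenes of the REXO1L family, with enrichments of 1.81 to 8.08 and 140 to 565 fragments. The neighbouring cluster near LOC124902048 had 11 with a median enrichment of 2.18. Near LOC124905368 on chromosome 2, 23 summits in 4 intervals had a median of 2.62 and 93 to 235 fragments. COPG2, a coat protein gene, had 16 summits in 2 intervals with enrichments of 3.04 to 4.43. GSE1 had 11 of its 14 summits in a single interval, at 3.97 to 7.23, while its strongest, 9.67 at 85395692, stood apart. Reads from near-identical copies at the POTE, NBPF and REXO1L families are uncertain in the same way as those of the snRNA genes.

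Some closely spaced clusters joined such an interval to strong separate summits. NBPF26 had 15 summits of 2.82 to 8.98, followed by 3 beyond the gene of 13.5, 10.3 and 17.7; the first of these, with 2133 fragments, lay by a tRNA gene for asparagine and the second, with 1199, was 95 bp from the snRNA gene RNVU1-19. Near DLG1, 12 summits had 108 to 151 fragments, and the last, 5138 bp on, had 1351 fragments and an enrichment of 15.0. The cluster near SCGB1C2 at the start of chromosome 17 had the second highest median enrichment of all, 9.34, with 178 to 399 fragments, after the second snRNA cluster, with 10.9.

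The values at the limits of the rule were as follows. The clusters of exactly 10 summits with the highest summed enrichment were those near SCGB1C2 (101) and near LRRC74A (76.8), and the chains of 9 summits with the highest sums, just outside, were near DEFB125 (97.9) and at EPPK1 (76.4). There were 30 chains of 9 summits within 100 kb of a coding gene. The cluster farthest from a coding gene, near DLG1, lay 85496 bp away, and the nearest chain of 10 just outside the limit, near KLF14, lay 104688 bp away and reached an enrichment of 14.0. The lowest −log10 q among the 802 summits was 10.1.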

How the data were processed

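Omni-ATAC libraries were made from 3 groups of 4 samples. The submitters' processing notes name, with no role or order, fastp 0.20.0, Bowtie2 2.4.3, deepTools 3.5.0, SAMtools, MACS2 2.2.7.1 and the build hg38. Which steps used them, and how duplicates and multiply mapped reads were treated, is not given in the sources used here. The authors' 1 deposited list has no header and pools the series. Its enrichment was read as a ratio (fold over background), its p-values and q-values as −log10 values, and the deposited score was 10 times the −log10 q, cut to a whole number, in 99.8% of lines.

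Pileup and background were solved from enrichment, taken as (pileup + 1)/(background + 1), and a Poisson upper-tail p, a model no label states. It gave whole pileups, within 0.05, in 99.96% of lines. The solving step was also run on data simulated from the same model, which checks the arithmetic and cannot test the model. Genes came from the RefSeq table for GRCh38.p14, which holds 20037 coding genes, and start sites from its promoter table. Python 3.11.15, numpy 2.4.6, scipy 1.17.1, pandas 2.3.3 and matplotlib 3.10.9 were used. The edgeR comparison planned between concentrations was not run, for want of values per library.

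The clusters and gene lists were chosen with earlier results of these data known. Clusters named were the 12 with most summits, the 8 with most per 10 kb, the 5 highest and 5 lowest in median enrichment, those at listed genes, and those at the limits of the rule. The other clusters described were chosen after their values were seen. Alternatives to each step of the rule are given in the closing section.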

Additional observations from a re-analysis of the deposited data

Results flagged for a closer look

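Long runs of distal summits were also present on sequences that the rule leaves out, and they are given as counts with no explanation. Chained in the same way, stretches of 10 or more summits numbered 4 on chromosome X, 6 on chromosome Y, 9 on alternate haplotype sequences and 19 on unlocalised or unplaced sequences. They were picked out because they lie in data that no comparison above used, and no control sample was available to set them against.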

How the results depend on the processing

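By construction, each alternative admits or removes summits or chains, and the number of clusters changed by over 1.5 times under each but 1; why the other values moved was not tested. The main values were 64 clusters, 802 summits, a median enrichment of 4.52, 42.1% of summits in coding genes and 50 genes overlapped. With a joining gap of 6250 bp there were 20 clusters, 273 summits, 35.9% in genes and 9 genes. With a gap of 25000 bp there were 418 clusters, 5526 summits, a median of 5.24, 53.5% in genes and 769 genes. At least 8 summits per cluster gave 141 clusters, 1448 summits, 46.5% in genes and 117 genes. At least 15 gave 10 clusters, 192 summits, a median of 3.81, 25.5% in genes and 4 genes. A −log10 q of at least 5 gave 114 clusters, 1469 summits, a median of 3.65 and 98 genes, and one of at least 20 gave 38 clusters, 468 summits, a median of 5.05 and 22 genes. Keeping summits over 2500 bp from coding gene ends left 56 clusters and 704 summits, within 1.5 times the main counts, and 32 genes overlapped. Using the ends of all genes left 41 clusters, 492 summits and 56.5% in genes. With 1 summit per interval there were 19 clusters, 211 summits, a median of 4.82 and 15 genes. Intervals of at most 3000 bp gave 41 clusters, 478 summits and 46.4% in genes. Clusters that overlapped a coding gene numbered 36, with 421 summits and 80.3% in genes. Without summits whose background exceeded 5 times the genome-wide level there were 41 clusters, 494 summits and 29 genes. Without the closely spaced clusters, an alternative chosen after seeing the data, there were 41 clusters, 481 summits and 45.9% in genes. Of the 65 values under alternatives, 19 stayed within their limits. All 802 summits were kept by the larger gap, the lower summit number and the lower q limit, and 26.3% of them by 1 summit per interval. No paired analysis was possible because the list holds no values per library, and no library could be left out for the same reason. Depth per library is unknown, so no value carries a replicate error.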
